A study of Homo sapiens with 6 samples.

Results

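The genes described here are the NRF2 pathway and the enzymes of redox defence, taken as a list of 36 symbols: the regulators of the pathway, the glutathione, thioredoxin and peroxiredoxin systems, superoxide dismutases, catalase, detoxifying reductases and ferritin. The list was chosen with earlier results of these data known. All 36 were found among the 56638 gene symbols of the files, and all 36 passed the filter on low counts. They were read in 6 RNA-seq libraries from human colorectal cancer cells, 3 transfected with non-specific control siRNA (replicates 1, 2 and 3) and 3 with siRNA against the lncRNA AF339830, which the study renamed GLCC1 (replicates 1, 2 and 3). The labels give SW480 cells at passage 16-19 in RPMI-1640 medium with 10% serum, whereas the study's methods name DLD-1 cells for this experiment. No dose, time after transfection or siRNA sequence stands in the labels, and a single GLCC1 siRNA arm was sequenced. The titles number the libraries of each group siRNA1, siRNA2 and siRNA3, and these numbers are read here as replicates. The study lists different sequences for GLCC1 siRNA1 and siRNA2, and the titles do not say whether the number stands for a sequence. Titles, source names and genotypes (which read siRNA1 in every library) put the libraries in these groups, while the library names give each group the name of the other siRNA. Each fold change below is GLCC1 siRNA over control siRNA by title and would turn its sign under the library names.

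NRF2, encoded by NFE2L2, is a transcription factor that KEAP1 holds for degradation until oxidants or electrophiles modify KEAP1. Freed NRF2 pairs with a small MAF protein at antioxidant response elements and raises enzymes that make glutathione, reduce thioredoxin, remove quinones and carbonyls and store iron. Peroxides themselves are removed by peroxiredoxins, glutathione peroxidases and catalase, and superoxide by the dismutases. Colorectal cancer cells are known to express many of these enzymes strongly, NQO1 and the ferritin chains among them.

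Between 11948790 and 19042516 read pairs fell on genes per library. GLCC1 siRNA replicate 2 was the smallest library and stood apart, with 14.2% of pairs on no annotated gene against 11.2% to 12.7% in the other 5 libraries. The chi-square per degree of freedom between it and the other GLCC1 siRNA libraries was 18.1 and 19.0, whereas other pairs of the same group gave 1.93 to 4.16, so no library was a copy of another. Where leaving it out changed a call, or a value by over 1.5 times, both values are given. GLCC1 has no symbol in the files. FARP1, the gene around its locus, was at 109 to 113 CPM (read pairs on a gene, scaled to a common library size with TMM factors) in the control libraries and at 63.2 to 65.6 CPM in the GLCC1 siRNA libraries (edgeR adjusted p = 9.2e-06). Of the exon bases of FARP1, 51.0% are shared with FARP1-AS1 and STK24. Whether the lower FARP1 count reflects a loss of GLCC1 was not tested. All 10 markers of colorectal epithelium were detected, 7 of which fell and 1 rose, and their summed level was 5812 to 6350.0 CPM in control and 2485 to 2899 CPM in GLCC1 siRNA libraries. KRT8, KRT19 and KRT18 went from means of 3584, 881 and 423 CPM in control to 1177, 347 and 120 CPM in GLCC1 siRNA libraries. CDH17 rose by 0.45 and EPCAM fell by 0.30 on the log2 scale. The part of the summed difference in the results below was not tested. Fewer cells with these markers and less of their RNA per cell cannot be told apart in RNA from whole samples. Markers of other cells were scarce. Fibroblast markers summed to at most 19.9 CPM (COL1A2, DCN and LUM at 0), leukocyte markers to at most 5.94 CPM (PTPRC at 0) and endothelial markers to at most 1.40 CPM (PECAM1, CDH5 and KDR at 0). Since the labels do not say that replicates were separate cultures, p-values measure only the spread between these libraries.

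Of the 36 genes, 28 passed an adjusted p of 0.05 in edgeR's quasi-likelihood test, 9 of them higher and 19 lower in the GLCC1 siRNA libraries. Among all 23074 genes tested, 14.9% were higher and 16.7% lower by the same rule. Many of those genes were weakly expressed. Restricted to the 10378 genes averaging 10 CPM or more, 20.1% were higher and 29.8% lower, against 7 and 18 of the 33 listed genes at that level (21.2% and 54.5%). The median log2 fold change was -0.29 for the list and 0.03 for all genes tested. In 30 of the 36 genes the 3 values of one group lay wholly above or below those of the other, which held for 46.3% of all genes tested. At 10 CPM or more these shares were 81.8% of the list and 63.9% of all genes, and the medians -0.32 and -0.07. Because earlier results of these data were known when the list was chosen, these shares and medians only describe it and are no test. Without GLCC1 siRNA replicate 2, 34 of the genes passed, 11 higher and 23 lower, while the number among all genes rose from 7293 to 9920. Called changes went in both directions, also within the peroxiredoxins (1 higher, 4 lower) and within the quinone, haem and carbonyl enzymes (4 higher, 2 lower). The thioredoxin system, glutathione peroxidases and transferases had no called rise, whereas NFE2L2, KEAP1, catalase, SOD2, PRDX4 and the aldo-keto reductases had no called fall.

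**Figure D1:**
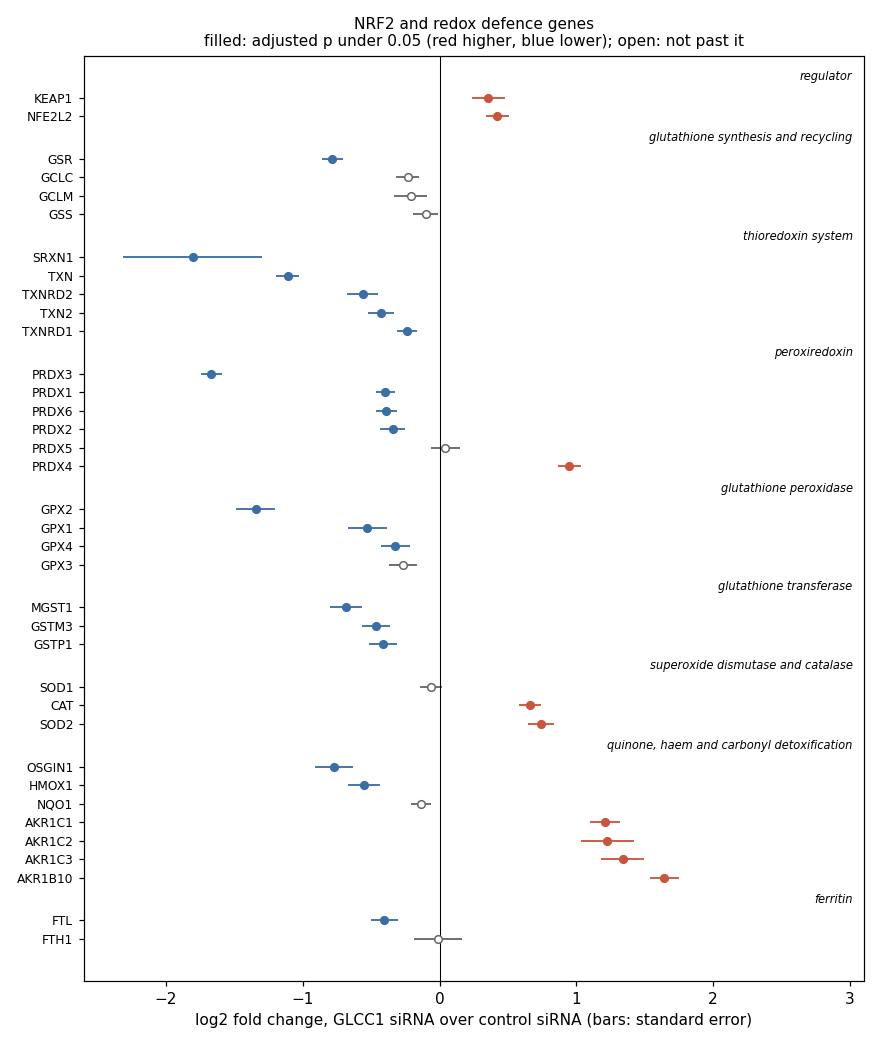
Log2 fold change (horizontal axis, GLCC1 siRNA over control siRNA) of the 36 genes by role, with standard errors from edgeR as bars and filled points for an adjusted p under 0.05. The 19 lower genes reach from -1.80 (SRXN1) to -0.24 (TXNRD1) and the 9 higher genes from 0.36 (KEAP1) to 1.64 (AKR1B10).

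Sequences upstream of some of these genes are shown because the regulators act there. In the 250 bases before the start of the canonical transcript, the core letters of the antioxidant response element, TGACNNNGC, were searched on both strands, and so was the E-box CACGTG, which reads the same on both strands and is the preferred site of c-Myc, a transcription factor the study examined. The antioxidant core was present before 6 of the 36 genes (GCLM, GSR, TXNRD1, PRDX1, GPX2 and GSTP1), which is 16.7%, and before 11.4% of 19855 protein-coding genes. Of these 6 genes 5 fell, and GCLM had an adjusted p of 0.20 in edgeR. Of all 36 genes of the list 19 fell (52.8%), and the share among all genes with the core was not computed. The E-box was present before 4 (PRDX3, PRDX4, GPX1 and HMOX1), or 11.1%, against 7.88% of all genes. Of these 4 genes PRDX4 rose and the others fell. A match is only a match of letters, and elements outside this window, such as distant enhancers, were not searched.

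Stretches of hg19 (GRCh37) around the antioxidant core of 5 of the genes follow, each written 5′ to 3′ on the strand of the gene, with up to 30 bases on each side and the core in capitals (as its reverse complement in GCLM, PRDX1 and GPX2). They lie at chr1:94374987-94375050 (minus strand), chr12:104609428-104609496 (plus), chr1:45987659-45987727 (minus), chr14:65409547-65409615 (minus) and chr11:67351187-67351255 (plus).
GCLM: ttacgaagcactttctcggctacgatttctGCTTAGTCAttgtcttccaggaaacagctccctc
TXNRD1: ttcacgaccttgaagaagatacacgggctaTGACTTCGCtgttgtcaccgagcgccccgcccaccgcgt
PRDX1: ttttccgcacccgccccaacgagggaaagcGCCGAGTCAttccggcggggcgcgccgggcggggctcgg
GPX2: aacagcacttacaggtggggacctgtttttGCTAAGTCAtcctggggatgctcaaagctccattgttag
GSTP1: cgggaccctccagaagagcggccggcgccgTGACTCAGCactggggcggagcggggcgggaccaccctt

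The next 2 stretches hold the E-box, in capitals, of PRDX3 (chr10:120938446-120938511, minus strand) and PRDX4 (chrX:23685497-23685562, plus strand). They are shown because these peroxiredoxins had the largest fall and the only called rise of their family.
PRDX3: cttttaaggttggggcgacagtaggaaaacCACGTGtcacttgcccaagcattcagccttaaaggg
PRDX4: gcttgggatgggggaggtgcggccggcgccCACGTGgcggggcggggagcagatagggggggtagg

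The 250 bases before the 4 aldo-keto reductase genes of the list are shown because these genes had the 4 largest rises in it. They lie at chr7:134212069-134212318 (plus strand), chr10:5005357-5005606 (plus), chr10:5046050-5046299 (minus) and chr10:5136356-5136605 (plus). Neither motif was found in them, so nothing is in capitals. AKR1C1 and AKR1C2 were identical at 245 of 246 aligned bases, and AKR1C1 and AKR1C3 at 185 of 234.
AKR1B10: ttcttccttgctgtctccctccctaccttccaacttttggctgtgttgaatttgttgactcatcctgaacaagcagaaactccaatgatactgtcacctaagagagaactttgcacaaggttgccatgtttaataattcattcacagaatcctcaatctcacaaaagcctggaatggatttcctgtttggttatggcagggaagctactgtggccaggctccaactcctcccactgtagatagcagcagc
AKR1C1: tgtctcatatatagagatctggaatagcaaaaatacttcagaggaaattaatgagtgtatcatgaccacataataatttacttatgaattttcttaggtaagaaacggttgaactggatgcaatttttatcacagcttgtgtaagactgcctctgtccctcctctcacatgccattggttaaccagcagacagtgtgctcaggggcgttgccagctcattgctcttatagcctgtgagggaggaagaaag
AKR1C2: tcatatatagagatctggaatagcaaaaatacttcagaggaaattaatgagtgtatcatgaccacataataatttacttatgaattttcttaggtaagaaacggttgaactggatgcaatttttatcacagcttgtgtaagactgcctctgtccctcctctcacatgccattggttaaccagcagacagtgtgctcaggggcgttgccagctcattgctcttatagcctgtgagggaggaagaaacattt
AKR1C3: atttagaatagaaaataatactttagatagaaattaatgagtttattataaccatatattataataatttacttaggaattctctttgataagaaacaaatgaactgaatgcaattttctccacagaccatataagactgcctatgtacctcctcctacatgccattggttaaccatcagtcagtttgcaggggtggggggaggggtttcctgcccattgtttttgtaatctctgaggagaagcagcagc

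Levels of different genes were compared per length, as CPM per kb of the canonical transcript. FTL, the light chain of the iron store ferritin, was the highest in the control libraries at 5744 ± 436 CPM per kb (SD, n = 3), followed by the cytosolic peroxiredoxin PRDX1 at 1094 ± 21.1. FTH1, the ferritin heavy chain, was at 797 ± 79.9, NQO1, a quinone reductase, at 596 ± 19.99 and TXN, the cytosolic thioredoxin, at 500.3 ± 15.1 CPM per kb. These 5 did not overlap between neighbours in the control libraries. Further down the order neighbours lay closer, and GSTP1 (453 to 510.4) and TXN (486 to 516) did overlap. At the low end stood AKR1C2 at 0.602 ± 0.0513 and SRXN1 at 0.778 ± 0.158 CPM per kb. With GLCC1 siRNA, TXN moved from place 5 to place 8 of 36, PRDX3 from 9 to 13, PRDX4 from 20 to 15 and AKR1B10 from 27 to 20. The scale depends on the annotated length, which is 14167 nt for SOD2 and 6543 nt for AKR1C1, and shorter transcripts of these genes would raise their levels. Exon bases shared with another annotated gene made up 73.2% for FTH1, 38.5% for PRDX1 and 22.8% for NQO1, and 0% for FTL and TXN. Pairs on such bases may have gone uncounted, so the order of FTH1, PRDX1 and NQO1 is uncertain.

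**Figure D2:**
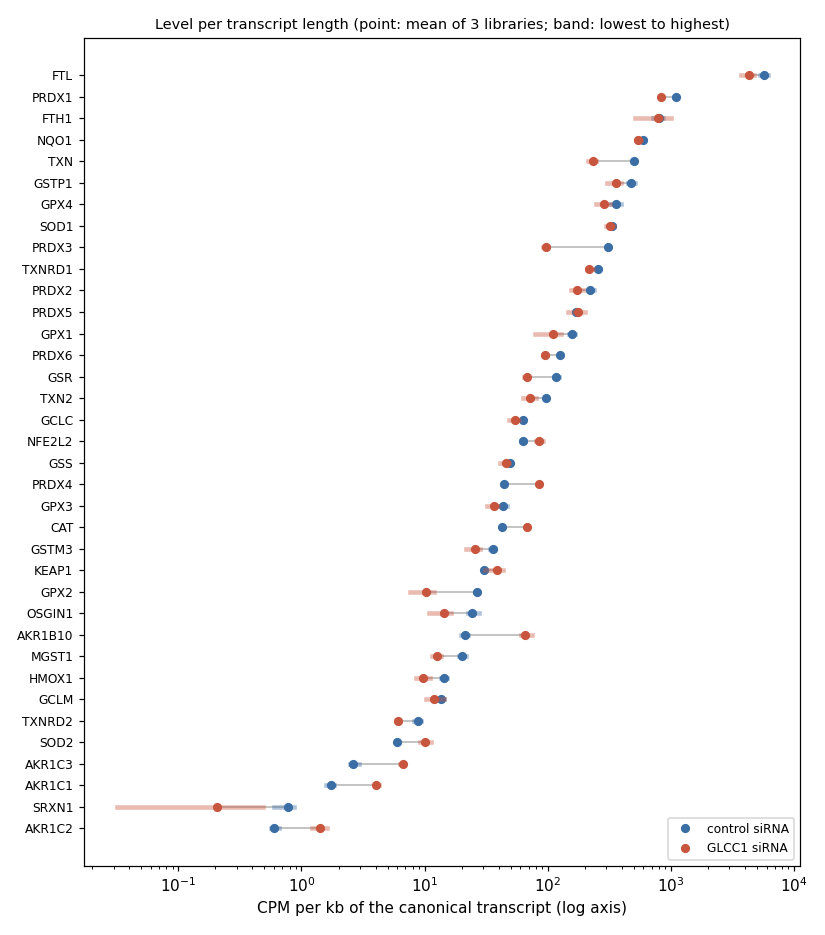
Mean CPM per kb of the canonical transcript (log axis) of the 36 genes in control siRNA (blue) and GLCC1 siRNA (red) libraries, with bands from the lowest to the highest of 3 libraries. FTL stood highest in both groups, at 5744 and 4340.1 CPM per kb, and the widest shifts were those of SRXN1, PRDX3, AKR1B10 and GPX2.

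The first question was the regulators themselves. NFE2L2, at 178083395 to 178257484 on chromosome 2 of hg19, was at 160.4, 147 and 155 CPM in control replicates 1, 2 and 3 and at 199, 223 and 198 CPM with GLCC1 siRNA. Every GLCC1 siRNA library was above every control library, and the log2 fold change was 0.42 (standard error 0.08, edgeR adjusted p = 0.0014). KEAP1, the adaptor that presents NRF2 to the CUL3 ubiquitin ligase, was at 76.9, 77.3 and 80.6 CPM in the controls and at 109, 78.8 and 112 CPM with GLCC1 siRNA. Replicate 2 lay among the controls while the other GLCC1 siRNA libraries lay above them. The log2 fold change of KEAP1 was 0.36 (standard error 0.12, edgeR adjusted p = 0.034) and became 0.50 (adjusted p = 1.1e-10) without GLCC1 siRNA replicate 2. Leaving out any of the other 5 libraries left KEAP1 short of the threshold, with edgeR adjusted p between 0.089 and 0.12. The log2 ratio of NFE2L2 to KEAP1 was 0.98 ± 0.07 (SD, n = 3) in control and 1.06 ± 0.38 in GLCC1 siRNA libraries, a difference of 0.09 within the spread of the replicates (two-sided exact permutation test, p = 1), and of -0.13 without GLCC1 siRNA replicate 2. The messenger RNA of NFE2L2 does not show the amount of NRF2 protein, which is set largely by degradation and was not measured in these libraries.

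NQO1, HMOX1 and OSGIN1, known targets of NRF2, had no called rise. NQO1 was at 1465, 1482 and 1559 CPM in the controls and at 1315, 1449.9 and 1332 CPM with GLCC1 siRNA, slightly lower in all 3 but with an edgeR adjusted p of 0.18 (log2 fold change -0.14). Without GLCC1 siRNA replicate 2 the value was -0.18 with an adjusted p of 0.0051. HMOX1, the inducible haem oxygenase, was at 21.7, 21.1 and 23.8 CPM in the controls and at 14.7, 13.3 and 17.2 CPM with GLCC1 siRNA. It fell in all 3 libraries, the log2 fold change being -0.55 (standard error 0.12, edgeR adjusted p = 0.0028). OSGIN1, an oxidative stress-induced growth inhibitor, went from 43.3, 53.5 and 44.4 CPM to 30.03, 20.8 and 31.4 CPM, a log2 fold change of -0.77 (standard error 0.14, edgeR adjusted p = 8.9e-04). Here too the groups did not overlap, and replicate 2 was the lowest library.

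The aldo-keto reductases, which reduce carbonyls, retinal and steroids with NADPH and are also counted among NRF2 targets in human cells, moved the other way. AKR1B10, on chromosome 7 from 134212319 to 134226164, was at 32.1, 36.8 and 33.8 CPM in the controls and at 121, 100.1 and 99.1 CPM with GLCC1 siRNA. This 3.12-fold rise was the largest of the list, the log2 fold change being 1.64 (standard error 0.11, edgeR adjusted p = 1.6e-07). AKR1C1, AKR1C2 and AKR1C3 lie side by side on chromosome 10, between 5005445 and 5149878. AKR1C1 was at 12.1, 11.8 and 10.4 CPM in the controls and at 27.7, 25.8 and 25.7 CPM with GLCC1 siRNA (log2 fold change 1.21, standard error 0.11, edgeR adjusted p = 2.5e-06). AKR1C2 rose from 2.13, 1.82 and 1.87 CPM to 4.59, 5.17 and 3.92 CPM (log2 fold change 1.23, standard error 0.20, edgeR adjusted p = 3.0e-04). AKR1C3 rose from 3.50, 2.92 and 2.95 CPM to 8.08, 7.48 and 7.999 CPM (log2 fold change 1.34, standard error 0.15, edgeR adjusted p = 2.1e-05). In each of these 4 genes every GLCC1 siRNA library was above every control library, replicate 2 included. AKR1C1 and AKR1C2 are near-identical copies, and read pairs that map to both are not counted. With the counts of both summed, the log2 fold change was 1.21 (edgeR adjusted p = 1.8e-06).

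In the thioredoxin system, where NADPH passes electrons through a reductase to thioredoxin and on to peroxiredoxins, all 5 genes fell. TXN, on chromosome 9 from 113006090 to 113018787, was at 358, 368 and 380.2 CPM in the controls and at 184, 156 and 172 CPM with GLCC1 siRNA. The groups lay far apart, the log2 fold change being -1.11 (standard error 0.08, edgeR adjusted p = 5.6e-07). Its reductase TXNRD1 was at 1004, 986 and 998 CPM in the controls and at 811, 896 and 822 CPM with GLCC1 siRNA. The log2 fold change of TXNRD1 was only -0.24 (standard error 0.07, edgeR adjusted p = 0.023). This call was lost with library totals as the only scaling (log2 fold change -0.12), and without any single library other than GLCC1 siRNA replicate 2 (edgeR adjusted p between 0.067 and 0.098). The 2 genes thus changed unequally. The log2 ratio of TXN to TXNRD1, which does not depend on scaling between libraries, was -1.49, -1.42 and -1.39 in the controls and -2.14, -2.52 and -2.26 with GLCC1 siRNA. The groups did not overlap, and the difference of -0.87 gave the smallest p that 3 against 3 libraries allow (two-sided exact permutation test, p = 0.1).

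Both mitochondrial partners fell. TXN2 was at 128, 127 and 132 CPM in the controls and at 95.0, 84.8 and 107 CPM with GLCC1 siRNA, a log2 fold change of -0.43 (standard error 0.09, edgeR adjusted p = 0.0034). TXNRD2 was at 16.0, 18.3 and 17.5 CPM and then at 11.4, 11.5 and 12.3 CPM, a log2 fold change of -0.56 (standard error 0.11, edgeR adjusted p = 0.0017). The log2 ratio of TXN2 to TXNRD2 was 2.90 ± 0.10 (SD, n = 3) in control and 3.03 ± 0.12 in GLCC1 siRNA libraries, a difference of 0.12 close to the spread of the replicates (two-sided exact permutation test, p = 0.3) and of 0.19 without GLCC1 siRNA replicate 2. SRXN1, the sulfiredoxin that repairs over-oxidized peroxiredoxins, was counted only 32, 40 and 25 times in the controls and 5, 1 and 22 times with GLCC1 siRNA. Replicate 3 lay close to the controls in CPM (1.23 against 1.51 in control replicate 3), and the log2 fold change of -1.80 (standard error 0.51, edgeR adjusted p = 0.015) became -3.34 without it. The call was lost without control replicate 2 (edgeR adjusted p = 0.065) or without GLCC1 siRNA replicate 1 (0.063). In GENCODE 44, 90.7% of the exon bases of SRXN1 are shared with another gene, and union mode may have left out pairs on such bases, depending on the annotation and strand setting used. SRXN1 and its substrate PRDX1 had log2 ratios of -8.91, -8.84 and -9.43 in the controls and of -11.56, -13.27 and -9.32 with GLCC1 siRNA, which overlap (two-sided exact permutation test, p = 0.2). The difference of -2.32 was -1.38 without GLCC1 siRNA replicate 2.

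**Figure D3:**
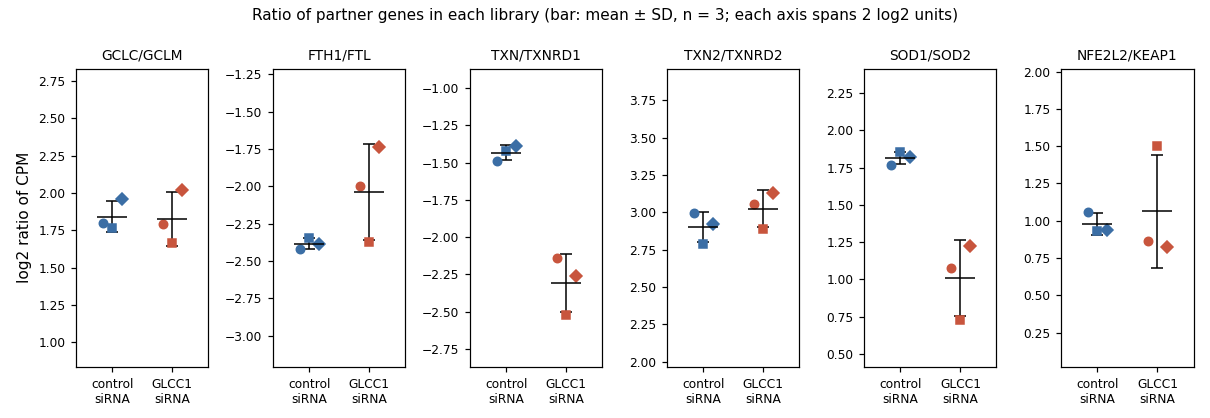
Log2 ratio of the CPM of partner genes (vertical axis, 2 log2 units in each panel) in each control siRNA (blue) and GLCC1 siRNA (red) library, with mean ± SD of 3 libraries. The TXN/TXNRD1 ratio fell from -1.43 to -2.31 and the SOD1/SOD2 ratio from 1.81 to 1.01 with no overlap, while the groups overlap in the other 4 panels.

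Peroxiredoxins, which reduce hydrogen peroxide in the cytosol, mitochondria and endoplasmic reticulum, split in direction. PRDX3, the mitochondrial member, on chromosome 10 from 120927232 to 120938324, was at 480.1, 473 and 479 CPM in the controls and at 142, 157 and 152 CPM with GLCC1 siRNA. This 3.18-fold fall was the largest of any gene of the list above 10 CPM, the log2 fold change being -1.67 (standard error 0.08, edgeR adjusted p = 1.5e-08). PRDX4, the member of the endoplasmic reticulum, on chromosome X from 23682379 to 23704514, was at 41.5, 41.8 and 43.4 CPM in the controls and at 79.6, 82.8 and 82.3 CPM with GLCC1 siRNA. It rose 1.93-fold, the log2 fold change being 0.95 (standard error 0.08, edgeR adjusted p = 2.3e-06). Neither gene overlapped between the groups. PRDX1 was at 1052, 1013 and 1036 CPM in the controls and at 785, 784 and 785 CPM with GLCC1 siRNA, a log2 fold change of -0.40 (standard error 0.07, edgeR adjusted p = 6.7e-04). PRDX6, the 1-cysteine member, fell by 0.39 and PRDX2 by 0.34 on the log2 scale (edgeR adjusted p = 0.0013 and 0.012). PRDX5, found in mitochondria, peroxisomes and cytosol, was at 147, 148 and 147 CPM and then at 157, 126 and 172 CPM (edgeR adjusted p = 0.79), and replicate 2 was the only GLCC1 siRNA library below the controls. Without replicate 2 PRDX5 passed, with a value of 0.16 on the log2 scale (edgeR adjusted p = 0.012). PRDX2 did not pass with library totals as the only scaling or without control replicate 2 (edgeR adjusted p = 0.078 in each).

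No gene of glutathione synthesis passed, whereas the recycling enzyme fell. GCLC, the catalytic subunit of the rate-limiting glutamate-cysteine ligase, was at 238, 237 and 243 CPM in the controls and at 184, 222 and 205 CPM with GLCC1 siRNA (log2 fold change -0.23, edgeR adjusted p = 0.052). GCLM, its modifier subunit, was at 68.2, 69.9 and 62.5 CPM and then at 53.1, 70.1 and 50.5 CPM (log2 fold change -0.21, edgeR adjusted p = 0.20). In both genes GLCC1 siRNA replicate 2 was the library nearest to the controls. Without it the log2 fold changes were -0.30 for GCLC and -0.36 for GCLM, and both passed (edgeR adjusted p = 8.2e-06 and 5.1e-06). The log2 ratio of GCLC to GCLM was 1.84 ± 0.10 (SD, n = 3) and 1.83 ± 0.18 (two-sided exact permutation test, p = 0.9), and the difference turned from -0.02 to 0.06 without GLCC1 siRNA replicate 2. GSS, glutathione synthetase, had a log2 fold change of -0.10 (edgeR adjusted p = 0.42), which was 0.020 with library totals as the only scaling and -0.029 without GLCC1 siRNA replicate 2. GSR, which returns oxidized glutathione to its reduced form, was at 343, 373 and 343 CPM in the controls and at 209.7, 196 and 208 CPM with GLCC1 siRNA. All 3 libraries lay well below the controls, the log2 fold change being -0.78 (standard error 0.08, edgeR adjusted p = 5.8e-06).

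Of the 7 listed glutathione peroxidases and transferases 6 fell, and GPX3 did not pass. GPX2, the gastrointestinal glutathione peroxidase, was at 23.9, 24.9 and 25.0 CPM in the controls and at 10.5, 6.999 and 11.1 CPM with GLCC1 siRNA, a log2 fold change of -1.35 (standard error 0.14, edgeR adjusted p = 1.2e-05). GPX1, the cytosolic form, was at 134, 146 and 149 CPM and then at 109, 71.1 and 116 CPM, a log2 fold change of -0.53 (standard error 0.14, edgeR adjusted p = 0.011). Replicate 2 was far the lowest library in GPX1, and without it the log2 fold change was -0.34 (edgeR adjusted p = 1.3e-06). Without control replicate 2 or 3 the GPX1 call was lost (edgeR adjusted p = 0.052 and 0.053), and 63.6% of its exon bases are shared with another annotated gene. GPX4, which reduces lipid hydroperoxides in membranes and guards against ferroptosis, had a log2 fold change of -0.32 (edgeR adjusted p = 0.030). The GPX4 call was lost with library totals as the only scaling (-0.20, edgeR adjusted p = 0.14), and without control replicate 2, control replicate 3 or GLCC1 siRNA replicate 1 (adjusted p = 0.16, 0.091 and 0.055). GPX3, the secreted form, had -0.27 (edgeR adjusted p = 0.065), and -0.18 (0.017) without GLCC1 siRNA replicate 2. Among the transferases, MGST1, a microsomal enzyme, went from 18.5, 17.7 and 20.1 CPM to 12.7, 11.7 and 10.6 CPM, a log2 fold change of -0.68 (standard error 0.12, edgeR adjusted p = 5.2e-04). GSTM3 and GSTP1 fell by 0.46 and 0.41 on the log2 scale (edgeR adjusted p = 0.0034 and 0.0067).

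Against these falls, catalase and the mitochondrial superoxide dismutase rose. CAT, the peroxisomal enzyme that splits hydrogen peroxide, was at 97.1, 97.6 and 99.5 CPM in the controls and at 158, 151 and 156 CPM with GLCC1 siRNA. The log2 fold change was 0.66 (standard error 0.08, edgeR adjusted p = 2.5e-05), and the spread within each group was small beside it. SOD2, which turns mitochondrial superoxide into hydrogen peroxide, was at 83.9, 82.6 and 87.3 CPM and then at 133, 160.1 and 131 CPM, a log2 fold change of 0.74 (standard error 0.09, edgeR adjusted p = 4.9e-05). SOD1, its cytosolic counterpart, was at 286, 298 and 309 CPM and then at 281, 266 and 307 CPM, overlapping groups with an edgeR adjusted p of 0.59 (log2 fold change -0.06, and -0.014 without GLCC1 siRNA replicate 2). The log2 ratio of SOD1 to SOD2 was 1.77, 1.85 and 1.82 in the controls and 1.08, 0.73 and 1.23 with GLCC1 siRNA, a difference of -0.80 without overlap (two-sided exact permutation test, p = 0.1). Mitochondrial members thus went both ways, SOD2 up and PRDX3, TXN2 and TXNRD2 down, while the share of counts on the 37 genes of the mitochondrial genome was 4.74% to 4.99% in control and 4.70% to 5.21% in GLCC1 siRNA libraries.

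**Figure D4:**
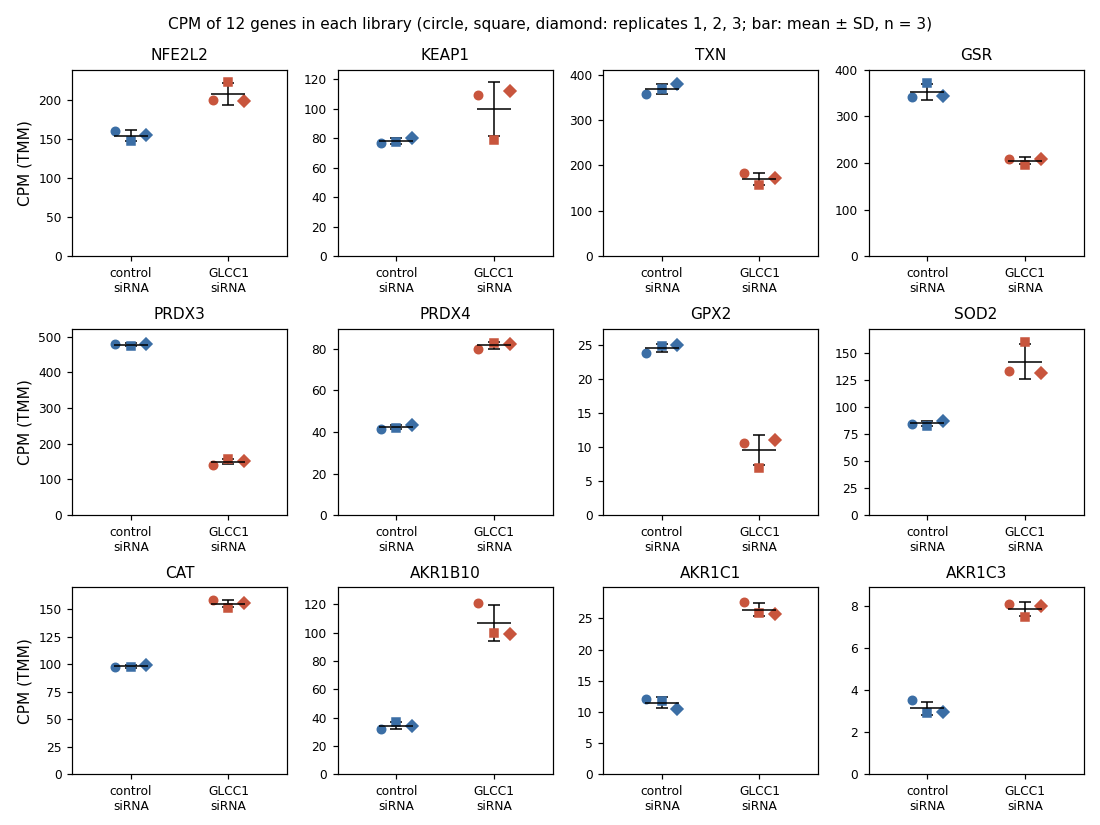
CPM (vertical axis from 0) of 12 genes in the 3 control siRNA (blue) and 3 GLCC1 siRNA (red) libraries, with mean ± SD. PRDX3 fell from 477 to 150.3 CPM and AKR1B10 rose from 34.2 to 107 CPM without overlap, whereas in KEAP1 the replicate 2 library (square, 78.8 CPM) lies among the controls.

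Ferritin, the iron store, gave a large share of the signal of the list. FTL and FTH1 together held 37.7% to 44.95% of the counts of the 36 genes in each library. FTL was at 4589, 5336 and 5083 CPM in the controls and at 4136, 3213 and 3992 CPM with GLCC1 siRNA, lower in all 3, the log2 fold change being -0.40 (standard error 0.10, edgeR adjusted p = 0.0060). FTH1 was at 857, 1047 and 972 CPM and then at 1037, 619 and 1198 CPM. Replicate 2 was the lowest of all 6 libraries in FTH1 and the other GLCC1 siRNA libraries were above the control mean. The log2 fold change of FTH1 was -0.01 (standard error 0.17, edgeR adjusted p = 0.97) and turned to 0.23 (adjusted p = 0.018) without that library. The sign of FTH1 also turned with library totals as the only scaling (0.11). FTH1 has 25 annotated pseudogenes in the files, which held 31.6% of the read pairs of gene and pseudogenes together, and 73.2% of its exon bases are shared with BEST1. With pseudogene counts added the log2 fold change was 0.033. For the other 11 genes with pseudogenes this share was at most 11.9% (GPX1), and adding them changed no call. The log2 ratio of FTH1 to FTL was -2.39 ± 0.04 (SD, n = 3) in control and -2.04 ± 0.32 in GLCC1 siRNA libraries (two-sided exact permutation test, p = 0.2). Of the 7 ratios compared in all, none had a Benjamini-Hochberg adjusted p below 0.35.

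**Figure D5:**
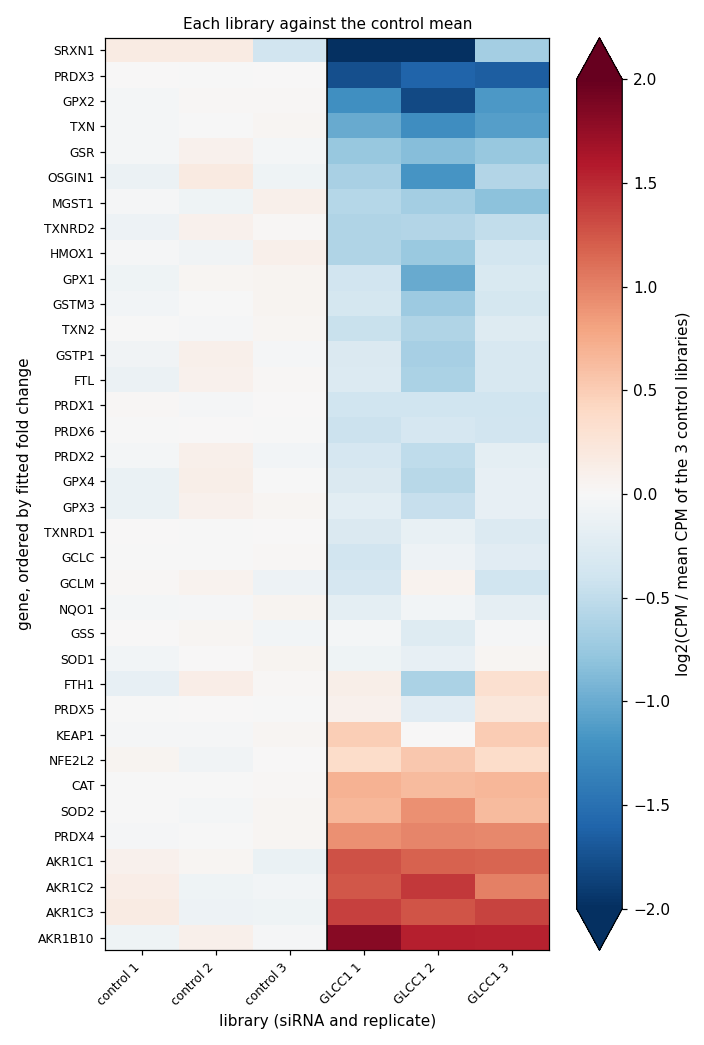
Log2 of the CPM of each library over the mean of the 3 control libraries, for the 36 genes (rows, ordered by fitted fold change) in 6 libraries (columns), with colours limited to ±2. The column of GLCC1 siRNA replicate 2 differs in colour from the other GLCC1 siRNA libraries for FTH1, GPX1 and KEAP1, and has their direction for PRDX3, TXN, GSR, CAT and the aldo-keto reductases.

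A second list of 72 genes of the same pathway served for comparison. It held NRF2 partners, cystine transport, NADPH supply, further transferases and other antioxidant genes. Of its 69 tested members 39 passed in edgeR, 18 higher and 21 lower (26.1% and 30.4%), beside 14.9% and 16.7% of all genes tested and 20.1% and 29.8% of those averaging 10 CPM or more, and the median log2 fold change was -0.02. The shares of this list cover all its tested members, some of them below 10 CPM, and were not computed at that level. Of the 11 genes of NRF2 partners and turnover 4 rose and 5 fell. NFE2L3 and DPP3 fell by 0.78 and 0.80 on the log2 scale, and BTRC rose by 0.79 (edgeR adjusted p = 2.5e-05, 2.1e-04 and 2.2e-05). BACH1, the repressor that competes with NRF2 for the same elements, and NFE2L1 rose by 0.56 and 0.47 on the log2 scale, whereas of the small MAF genes MAFF and MAFK fell by 0.71 and 0.92 (edgeR adjusted p = 3.5e-04, 4.4e-04, 0.001 and 2.4e-05). MAFG, the most abundant small MAF gene of the list, had a log2 fold change of 0.012 with overlapping groups (edgeR adjusted p = 0.93). TXNIP, which binds and inhibits thioredoxin, had the largest change of the list above 10 CPM. TXNIP was at 59.9, 55.1 and 64.9 CPM in the controls and at 174, 204 and 184 CPM with GLCC1 siRNA (log2 fold change 1.64, standard error 0.10, edgeR adjusted p = 7.9e-08). The thioredoxin inhibitor thus rose where TXN fell. SESN2, a stress-induced sestrin, rose by 1.13 on the log2 scale, from 32.8 ± 1.35 to 72.0 ± 10.96 CPM (SD, n = 3, edgeR adjusted p = 6.6e-06). ABCC2, an exporter of glutathione conjugates, rose by 1.24, from 14.0 ± 0.984 to 33.0 ± 1.89 CPM (SD, n = 3, edgeR adjusted p = 1.6e-06). Lower were the transferase GSTM4 (log2 fold change -1.29) and PTGR1, a reductase of reactive alkenals (-1.01), with edgeR adjusted p of 3.7e-07 and 3.3e-06. Of the 11 further transferases and peroxidases tested 3 rose and 3 fell. The risers were GPX8, a peroxidase of the endoplasmic reticulum (log2 fold change 0.91), GSTZ1 (0.38) and GSTA4 (0.37), with edgeR adjusted p of 1.8e-05, 0.0068 and 0.047. Besides GSTM4, GSTM2 (log2 fold change -0.87) and MGST3 (-0.40) fell, with edgeR adjusted p of 8.0e-05 and 0.0056.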

How the data were processed

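Total RNA of 6 samples of a colorectal cancer cell line was sequenced as 150-base read pairs (TruSeq RNA kit). The authors mapped reads to hg19 with TopHat 2.0.11 and deposited for each gene symbol the raw counts, in read pairs, from HTSeq in union mode. The HTSeq version and strand setting are not given in the sources used here. The tallies of unassigned pairs were set aside.

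Genes whose counts summed to under 5 in each of the groups were removed, after the study's methods, which left 23074 genes. Libraries were grouped by title. Counts were scaled with TMM and compared in edgeR 4.0.16 (R 4.3.3) with the robust quasi-likelihood fit, with Benjamini-Hochberg adjustment over all genes. The standard error is the log2 fold change over the square root of the F statistic. Ratios of partner genes were compared by exact permutation over the 6 libraries. Alternatives were DESeq2 1.42.0, its size factors, library totals, filters of 1 count in any or 10 counts in every library, a replicate block, a threshold of 0.01, pseudogene counts added, AKR1C1 and AKR1C2 summed, and each library left out. The procedure was tested on simulated data. Positions, lengths and upstream sequence come from GENCODE 44 on GRCh37, to whose symbols 33835 of 56638 were matched, with all 36 genes among them.

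The genes, lists and partner pairs were chosen with earlier results of these data known. Library values were given for the regulators, for genes with an adjusted p under 0.05 and an absolute log2 fold change of at least 0.5, and for the partner pairs, and NQO1 and PRDX5 were added after their values were seen. Of the second list, the 6 largest called changes above 10 CPM were to be named, of which 1 is not reported here, and 5 NRF2 partners and 3 enzymes were added after their values were seen.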

Additional observations from a re-analysis of the deposited data

How the results depend on the processing

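Of the 28 called genes, 22 still passed at an adjusted p under 0.01. Of the whole list, called or not in the main fit, between 25 and 30 genes passed under DESeq2, its size factors, other filters and library totals. With each library left out the number lay between 22 and 34, for the second list between 32 and 51. Library totals moved the median of all genes from 0.03 to 0.15. In that setting GSS (0.020), SOD1 (0.057) and FTH1 (0.11) turned their sign, none of them called, and TXNRD1, GPX4 and PRDX2 lost their calls. FTH1 turned also with the filter of 10 counts in every library (0.026), with pseudogene counts added (0.033), without control replicate 2 (0.056) and without GLCC1 siRNA replicate 2 (0.23), and PRDX5 without GLCC1 siRNA replicate 3 (-0.056). For FTH1 the values without a library ran from -0.21 to 0.23, for PRDX5 from -0.056 to 0.16. Why was not tested. SRXN1 was removed by the filter of 10 counts in every library. Libraries with the same replicate number did not deviate alike from their group means, the correlations over 14875 genes being -0.16, -0.29 and -0.01. With 3 libraries per group and GLCC1 siRNA replicate 2 apart, a smaller shared effect could go unseen. The main fit used no pairing. With the replicate number as a block 27 genes of the list passed, 9 higher and 18 lower, TXNRD1 being lost, and 36 of the second list. An exact test over 3 against 3 libraries cannot give p under 0.1.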

Other observations

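Other aldo-keto reductases of the files, looked up after the rise of AKR1B10 and the AKR1C genes had been seen, did not all follow it. AKR1B1, the aldose reductase of the polyol pathway, was at 1.92, 2.09 and 1.69 CPM in the control libraries and at 5.996, 6.12 and 4.98 CPM with GLCC1 siRNA, without overlap, the log2 fold change being 1.57 (standard error 0.19, edgeR adjusted p = 2.7e-05). AKR1A1, which is expressed far more strongly, was at 100.4, 100.7 and 108 CPM and then at 91.6, 77.9 and 98.3 CPM (log2 fold change -0.20, edgeR adjusted p = 0.13). AKR7A2 and AKR7A3, which reduce aldehydes, had log2 fold changes of -0.23 and -0.47 (edgeR adjusted p = 0.18 and 0.092). AKR1C4 and AKR1B15 had at most 8 counts in any library, and AKR1E2 had none.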
